A study of Mus musculus with 8 samples.

Results

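The genes described here are 38 genes of DNA replication and of the passage from G1 into S phase: the factors that license and fire replication origins, the DNA polymerases and primase, the sliding clamp with its loader and the enzymes that finish the lagging strand, the enzymes that supply deoxynucleotides, cyclin E with E2F1 and E2F2, and the chromatin assembly and histone RNA factors of S phase. They were chosen by symbol, and all 38 were found among the 29844 genes of the coding table. All 38 also passed the filter on low counts, which left 14059 genes for testing. RNA sequencing was done on embryonic cardiomyocytes cultured for 4 days on polydimethylsiloxane, a silicone rubber, that was either stiff (about 150 kPa, 4 libraries) or physiologically soft (about 10 kPa, 4 libraries), and the comparison asks how substrate stiffness affects RNA levels in these cells. Both groups were from embryos of B6.Cg-Tg(HIST1H2BB/EGFP)1Pa/J mice at E18.5, late in gestation, so every library carries the H2B-eGFP transgene, a histone fused to a fluorescent protein. Both were also grown in Advanced DMEM with 10% FBS until confluent and beating, and total RNA was taken. The cells came from microdissected hearts digested to single cells; how many embryos went into a library, and whether the 4 libraries of a substrate were separate cultures or litters, is not given in the labels, so a p-value here speaks of the spread among these libraries, part of which may be technical. A library is named here by its substrate and by the last digit of its library code, which runs from 1 to 4 on both substrates. The labels do not say what that digit marks, and each digit has 1 stiff and 1 soft library. The rest of the code differs wholly between substrates, so whatever that rest marks cannot be told apart from the substrate.

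Before a cell can copy its DNA, the origin recognition complex, Cdc6 and Cdt1 load the MCM helicase onto origins in G1, a step called licensing. At the start of S phase, Cdc45 and the GINS complex join the helicase and the polymerases begin synthesis. Many of these genes are transcribed together at the G1/S boundary by E2F factors, which are released when cyclin and CDK complexes phosphorylate the retinoblastoma protein. Mouse cardiomyocytes divide during fetal life and largely leave the cell cycle soon after birth, and cultures of fetal hearts also hold fibroblasts and other cells that divide. In bulk RNA, fewer cells in S phase and less RNA per cell cannot be told apart.

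Coding counts summed to 27924797 to 34693673 per library on stiff and to 27646471 to 30701041 on soft, and the totals did not pass an exact permutation test (two-sided p = 0.286, with 0.0286 the smallest p that 4 against 4 allows). Levels are TMM-scaled CPM throughout, that is, counts relative to the library total after scaling by edgeR's factors; transcript lengths were not used here, so levels are compared between libraries and not between genes. Cardiomyocyte markers, among them Nppa and Actc1, were abundant in every library, and their sum was 33488, 28284, 30146 and 39724 CPM in stiff libraries 1 to 4, against 28826, 26611, 27236 and 48329 CPM in soft libraries 1 to 4. Fibroblast markers, among them Col1a2 and Col3a1, were also present in every library, at 9442 to 14590 CPM on stiff and 10205 to 17823 CPM on soft. Endothelial markers summed to 212 to 347 CPM on stiff and 194 to 297 CPM on soft, and leukocyte markers to 113 to 163 CPM on stiff and 122 to 181 CPM on soft. The libraries therefore hold cardiomyocyte RNA, as labelled, together with RNA of other heart cells. None of the marker sums passed the exact permutation test between substrates (p from 0.286 to 1).

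Between the substrates, no difference was detectable for any of the 38 genes: 0 passed edgeR's quasi-likelihood test at an adjusted p under 0.05, and 0 of all 14059 tested genes (0%) did. The lowest adjusted p was 0.99997, among the 38 genes and among all genes alike. At an unadjusted p under 0.05 edgeR listed 130 of all tested genes and 0 of the 38, and DESeq2 listed 177 of all tested genes. Chance alone would list more genes than this at that threshold, so these counts are no sign of a difference, nor of its absence. These fits had no digit term, so the spread between digits described below stayed in their error and may have raised their p-values. Whether it did was not tested. Estimated log2 fold changes, stiff over soft, ran from -0.55 (SE 0.56) for Tk1 to 0.95 (SE 0.73) for Cdc6, with a median of -0.05, against a median of -0.01 over all tested genes. The estimate was higher on stiff for 17 of the 38 genes (44.7%) and for 48.1% of all tested genes. The stiff and soft ranges overlapped in all 38 genes. Of the 14059 tested genes, 181 (1.29%) had ranges that did not overlap. At so small a share, 0 of 38 does not set the group apart.

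Orc6, a subunit of the origin recognition complex, had the smallest unadjusted p of the 38 between substrates; its gene lies at chr8:85299632-85308279 (GRCm38.p6, RefSeq). Orc6 had 18.8, 27.7, 29.9 and 44.0 CPM in stiff libraries 1 to 4, against 16.3, 25.6, 21.5 and 29.5 CPM in soft libraries 1 to 4. Soft library 1 was the lowest of the 8 and stiff library 4 the highest, the ranges overlapped, and the means were 30.1 ± 10.46 CPM on stiff and 23.2 ± 5.63 CPM on soft (SD, n = 4 each). Its log2 fold change was 0.37 (SE 0.28) with a 95% interval of -0.22 to 0.97 and an unadjusted edgeR p of 0.203. Tk1, cytosolic thymidine kinase, which salvages thymidine for DNA synthesis, had the lowest estimate, and lies at chr11:117815519-117826087. Tk1 had 4.48, 4.97, 14.4 and 19.1 CPM in stiff libraries 1 to 4, against 5.46, 8.27, 22.2 and 26.9 CPM in soft libraries 1 to 4. Libraries 3 and 4 were above libraries 1 and 2 on both substrates, and this spread within a substrate exceeded the distance between the means of 10.7 ± 7.20 CPM on stiff and 15.7 ± 10.4 CPM on soft (SD, n = 4 each). Chaf1a, the large subunit of the chromatin assembly factor that places histones on new DNA, had an estimate of -0.53 (SE 0.54), and Lig1, the ligase that seals lagging-strand fragments, one of -0.32 (SE 0.34). Pola2, the accessory subunit of DNA polymerase alpha, had an estimate of -0.38 (SE 0.35), Gins4 of the GINS complex one of 0.33 (SE 0.28) and E2f1, a transcription factor of the G1/S programme, one of 0.30 (SE 0.34). None of these passed the test.

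**Figure D1:**
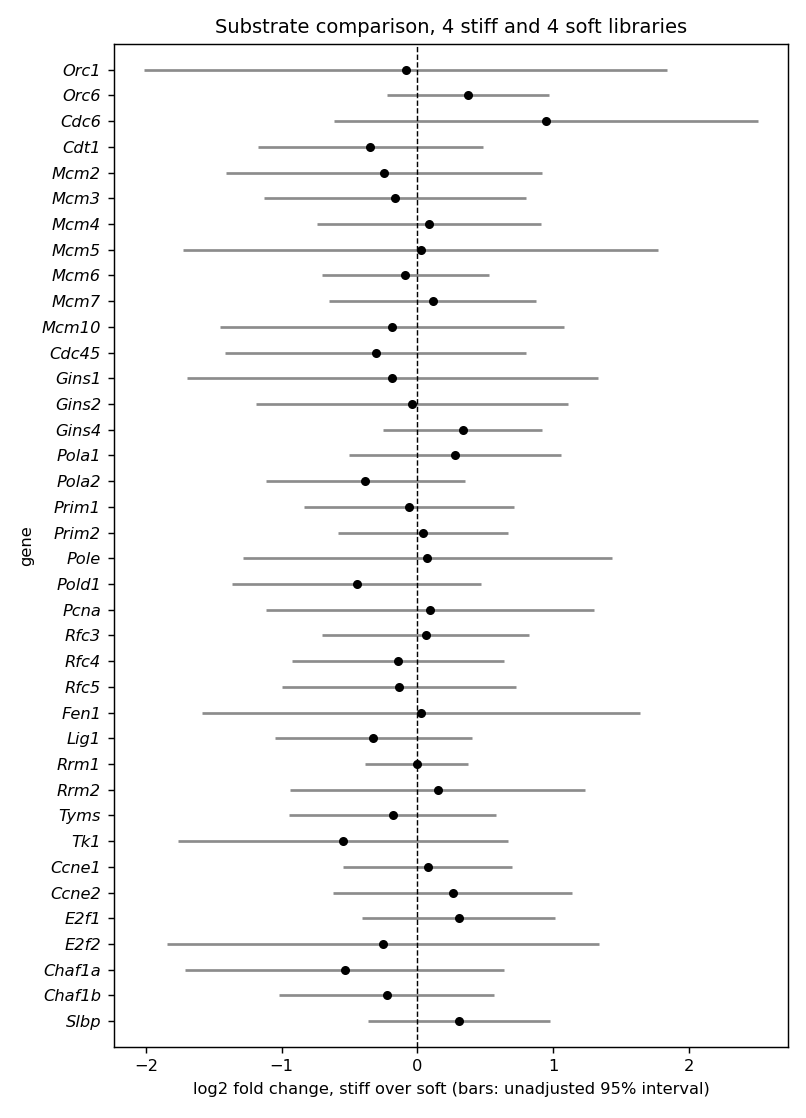
The log2 fold change, stiff over soft, of each of the 38 genes (points) with its unadjusted 95% interval from edgeR (bars) is plotted from 4 stiff and 4 soft libraries. All 38 intervals cross 0, and the estimates lie between -0.55 and 0.95.

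The precision of these estimates was limited. The unadjusted 95% interval reached a median of 1.80-fold to either side of the estimate over the 38 genes (0.85 on the log2 scale), against 0.60 over all tested genes. For a typical gene of the group, an estimate smaller than that could not be told from 0 even before adjustment. Larger differences could also miss the adjusted threshold. The median SE of the 38 was 0.40 in this fit and 0.28 in an alternative fit with the digit as a further term. The direction of the estimates also changed when single libraries were left out: 33 of the 38 were higher on stiff without soft library 4, and 7 of 38 without stiff library 4. The count was 26 without stiff library 1, 9 without stiff library 3 and 10 without soft library 2. These fits had no digit term, and leaving out 1 library keeps its digit on 1 substrate only. The counts therefore mix substrate with the spread between digits described below, and cannot show how firm the direction is.

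Part of the spread within a substrate was shared by both substrates and by most of the 38 genes, with libraries 3 and 4 mostly above libraries 1 and 2. Finer differences were shared less. After substrate means were taken out, the stiff and soft libraries of the same digit correlated over the 38 genes at -0.04, 0.05, 0.40 and 0.44 for digits 1 to 4. In a joint test of the 4 code digits with the substrate as a term (edgeR's quasi-likelihood F test), 1070 of the 14059 tested genes (7.61%) passed at an adjusted p under 0.05, and 20 of the 38 (52.6%) did. All 20 had their highest mean in digit 4 and their lowest in digit 1 (8 genes) or digit 2 (12 genes). Over these 20, the ratio of the highest to the lowest digit mean ran from 2.16 for Slbp to 8.42 for Mcm5. Among all 1070 genes that passed, 488 (45.6%) had their highest mean in digit 4. The lowest mean of these 1070 was in digit 1 for 231 genes and in digit 2 for 329. The sum over the 38 genes was 669, 738, 1214 and 1498 CPM in stiff libraries 1 to 4, against 793, 732, 1129.9 and 1464 CPM in soft libraries 1 to 4. Library 4 was the highest and library 3 the next on each substrate, and libraries 1 and 2 were the lowest on each. Without Rrm1, which takes the largest part of it, the sum was 470.2, 486, 924 and 1178 CPM in stiff libraries 1 to 4, against 561, 481, 833 and 1179.7 CPM in soft libraries 1 to 4, in which the same libraries were high. The test describes differences between library codes and not an effect of a treatment, and each digit has 1 stiff and 1 soft library.

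**Figure D2:**
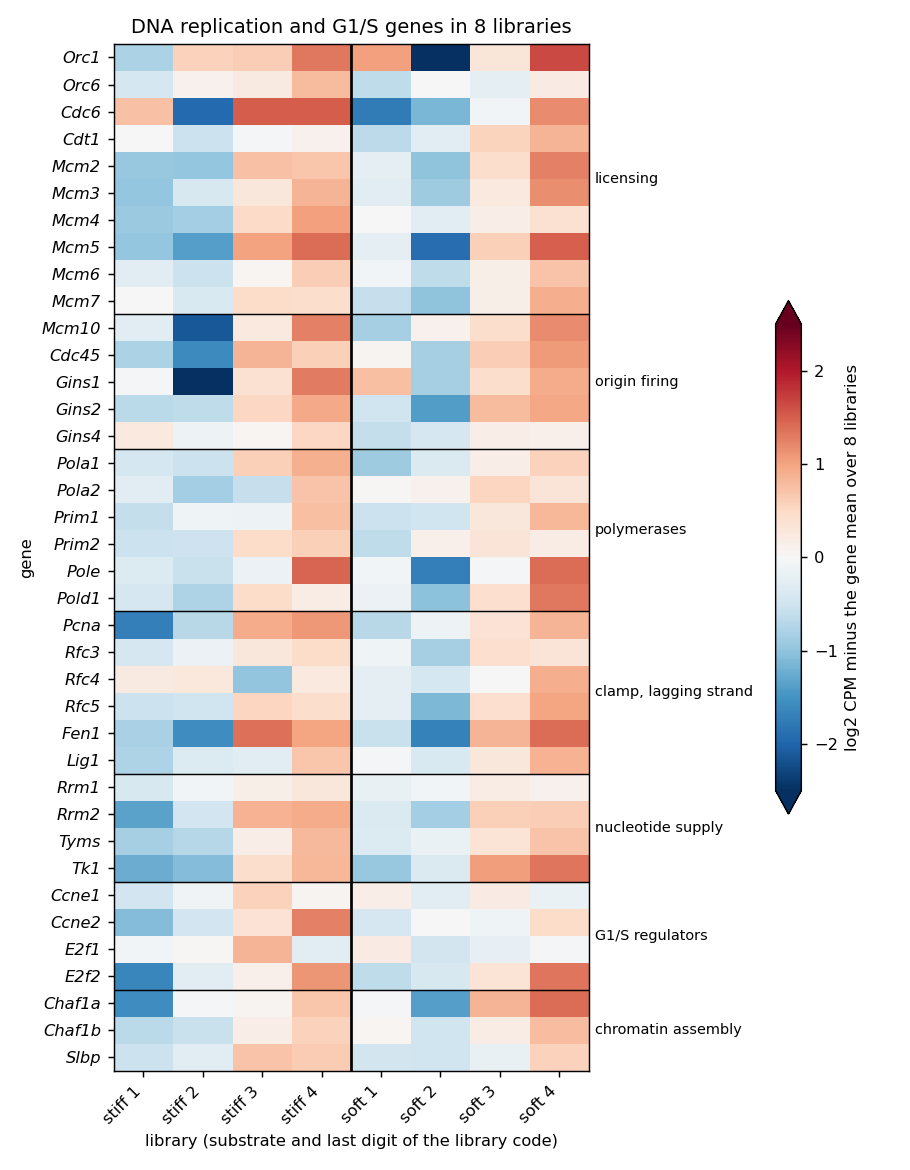
Each row is 1 of the 38 genes, ordered by role, and each column is 1 library, with the stiff libraries left and the soft libraries right; colour gives the distance of log2 CPM from the average of that gene. Libraries 3 and 4 of either substrate are mostly above the gene mean and libraries 1 and 2 mostly below it, and no colour step separates stiff from soft.

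Among the 10 licensing genes, 7 passed the test between code digits: Cdc6 and the 6 subunits of the MCM helicase. The smallest p of the 38 was that of Mcm5, at chr8:75109468-75128439. Mcm5 had 7.90, 5.96, 31.5 and 40.8 CPM in stiff libraries 1 to 4, against 13.2, 4.12, 23.4 and 44.0 CPM in soft libraries 1 to 4. On both substrates libraries 3 and 4 exceeded libraries 1 and 2, and the stiff and soft ranges overlapped, with a mean 8.42 times as high in digit 4 as in digit 2 (adjusted p = 2.08e-07). Mcm2 had 13.1, 13.1, 42.3 and 41.5 CPM in stiff libraries 1 to 4, against 21.9, 12.6, 34.6 and 61.4 CPM in soft libraries 1 to 4. Mcm6 had 63.6, 53.2, 80.2 and 119 CPM in stiff libraries 1 to 4, against 74.3, 49.7, 85.2 and 127 CPM in soft libraries 1 to 4. Both subunits showed the same high and low libraries, with digit means 4.01-fold apart for Mcm2 (adjusted p = 2.66e-05) and 2.39-fold apart for Mcm6 (adjusted p = 0.00110). Mcm3 had 13.1, 19.5, 31.0 and 46.0 CPM in stiff libraries 1 to 4, against 21.1, 13.9, 30.2 and 57.4 CPM in soft libraries 1 to 4. Mcm4 had 22.7, 24.0, 60.4 and 88.2 CPM in stiff libraries 1 to 4, against 43.7, 35.5, 48.6 and 56.3 CPM in soft libraries 1 to 4. Mcm7 had 27.6, 21.3, 38.2 and 37.3 CPM in stiff libraries 1 to 4, against 18.53, 13.8, 30.8 and 51.9 CPM in soft libraries 1 to 4. Again libraries 3 and 4 were above libraries 1 and 2 on either substrate in all of these subunits, and the adjusted p was 4.64e-04 for Mcm3, 0.00749 for Mcm4 and 0.0130 for Mcm7. Cdc6 had 7.09, 1.06, 12.2 and 12.2 CPM in stiff libraries 1 to 4, against 1.22, 1.90, 4.06 and 9.73 CPM in soft libraries 1 to 4. For Cdc6, which loads the helicase together with Cdt1, stiff library 2 and soft library 1 were the lowest and libraries 3 and 4 the highest on each substrate, and the adjusted p between digits was 0.0292. Orc1, Orc6 and Cdt1, the helicase co-loader, did not pass between digits (adjusted p = 0.737, 0.188 and 0.620), though their mean was also highest in digit 4. Orc1 counts ran from 1 to 248 reads per library, which limits what can be said of its level.

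RefSeq promoters (250 bases before to 50 after the annotated start, build GRCm38.p6) were matched to 31 of the 38 genes, 36 promoters in all, and searched on both strands for the E2F words TTTCCCGC, TTTGGCGC, TTTCGCGC and TTTGCCGC. The promoters of 4 genes that passed between code digits are printed to show the E2F words that these genes share. They were chosen for holding a match, as the 4 with the smallest p between digits whose first listed promoter has one. They read 5′ to 3′ on the gene's strand, with matches in capitals: Mcm5 at chr8:75109259-75109558 on the plus strand, Pola1 (catalytic subunit of DNA polymerase alpha) at chrX:93632106-93632405 on the minus strand, and Mcm3 at chr1:20820263-20820562 and Mcm6 at chr1:128359656-128359955, both on the minus strand. In Mcm5 and in the first run of Mcm6, capitals cover a pair of overlapping matches on opposite strands.
Mcm5: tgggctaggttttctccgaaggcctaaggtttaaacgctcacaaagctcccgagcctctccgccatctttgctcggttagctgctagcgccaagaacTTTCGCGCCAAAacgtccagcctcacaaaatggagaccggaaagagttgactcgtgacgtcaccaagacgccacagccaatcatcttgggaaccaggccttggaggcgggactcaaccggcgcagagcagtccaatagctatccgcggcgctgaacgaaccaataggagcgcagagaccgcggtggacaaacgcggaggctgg
Pola1: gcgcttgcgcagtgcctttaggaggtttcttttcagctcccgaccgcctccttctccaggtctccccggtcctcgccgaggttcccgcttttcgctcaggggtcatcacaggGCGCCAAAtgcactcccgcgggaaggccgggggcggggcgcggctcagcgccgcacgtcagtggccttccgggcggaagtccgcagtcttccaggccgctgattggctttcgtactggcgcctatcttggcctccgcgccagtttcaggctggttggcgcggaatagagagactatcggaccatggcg
Mcm3: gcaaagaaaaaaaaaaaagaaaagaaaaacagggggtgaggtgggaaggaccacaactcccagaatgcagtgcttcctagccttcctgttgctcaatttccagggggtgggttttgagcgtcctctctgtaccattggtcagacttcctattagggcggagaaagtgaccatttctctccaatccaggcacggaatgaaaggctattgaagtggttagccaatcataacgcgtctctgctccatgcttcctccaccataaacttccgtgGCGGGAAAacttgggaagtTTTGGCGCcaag
Mcm6: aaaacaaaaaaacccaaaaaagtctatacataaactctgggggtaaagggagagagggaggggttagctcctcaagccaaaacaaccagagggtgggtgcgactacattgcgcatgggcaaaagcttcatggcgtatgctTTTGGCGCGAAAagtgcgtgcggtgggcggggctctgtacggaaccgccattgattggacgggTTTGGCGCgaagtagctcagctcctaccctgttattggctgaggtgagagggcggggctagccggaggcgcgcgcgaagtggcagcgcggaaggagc
An E2F word was present in 12 of the 36 promoters (33.3%), in 521 of 13620 promoters of all tested genes (3.83%) and in 744 of 32851 RefSeq promoters (2.26%). Among the genes that passed between digits it was present in 7 of 19 promoters (36.8%), and among those that did not in 5 of 17 (29.4%). The CHR word TTTGAA, known from promoters of mitotic genes, was present in 4 of the 36 promoters (11.1%), against 11.9% of promoters of all tested genes and 17.9% of RefSeq promoters. In promoters of 30 mitosis and cytokinesis genes, of which 26 were matched with 28 promoters, the CHR word was present in 21 (75.0%) and an E2F word in 1 (3.57%). A match is a description of the letters in this window and not of a bound site.

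Of the 5 origin firing genes, Cdc45, which joins the MCM helicase and the GINS complex into the active replicative helicase, passed the test between digits (adjusted p = 0.00152). Cdc45 had 6.80, 3.88, 21.5 and 17.9 CPM in stiff libraries 1 to 4, against 12.4, 6.61, 18.0 and 24.9 CPM in soft libraries 1 to 4. On both substrates libraries 3 and 4 were above the others, with soft library 4 the highest of all 8. Gins4 had 22.1, 17.0, 19.3 and 26.6 CPM in stiff libraries 1 to 4, against 12.2, 13.9, 20.9 and 20.3 CPM in soft libraries 1 to 4. This GINS subunit was highest in stiff library 4 and lowest in soft library 1, and it did not pass (adjusted p = 0.717). Gins1, Gins2 and Mcm10, a factor needed to activate the loaded helicase, had their highest mean in digit 4 and missed the threshold, with adjusted p values of 0.182, 0.0615 and 0.0735.

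Among the 6 polymerase and primase genes, 3 passed between digits: Pola1, Pole (at chr5:110286319-110337468) and Pold1, the catalytic subunits of the polymerases alpha, epsilon and delta, which start new strands, extend the leading strand and extend the lagging strand. Pole had 11.2, 9.56, 12.9 and 39.0 CPM in stiff libraries 1 to 4, against 13.5, 4.29, 13.8 and 37.6 CPM in soft libraries 1 to 4. Stiff library 4 stood at 39.0 CPM, far above the other stiff libraries, and soft library 4 was also the highest of its substrate (adjusted p = 4.49e-05). Pola1 had 35.04, 32.5, 71.6 and 87.9 CPM in stiff libraries 1 to 4, against 25.8, 36.8, 53.6 and 71.2 CPM in soft libraries 1 to 4. Pold1 had 10.2, 8.07, 18.8 and 15.6 CPM in stiff libraries 1 to 4, against 12.4, 6.68, 18.4 and 34.3 CPM in soft libraries 1 to 4. Both had libraries 3 and 4 above libraries 1 and 2 on each substrate, with digit means 2.62-fold apart for Pola1 (adjusted p = 2.83e-04) and 3.39-fold apart for Pold1 (adjusted p = 0.0182). Pola2 had 10.96, 7.39, 8.97 and 21.8 CPM in stiff libraries 1 to 4, against 13.7, 14.4, 19.3 and 16.7 CPM in soft libraries 1 to 4. In Pola2 the highest stiff library was 4 and the highest soft library was 3, and the gene did not pass (adjusted p = 0.483). Prim1 and Prim2, the catalytic and large subunits of primase, which lays the RNA primers, did not pass either (adjusted p = 0.0669 and 0.0848).

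**Figure D3:**
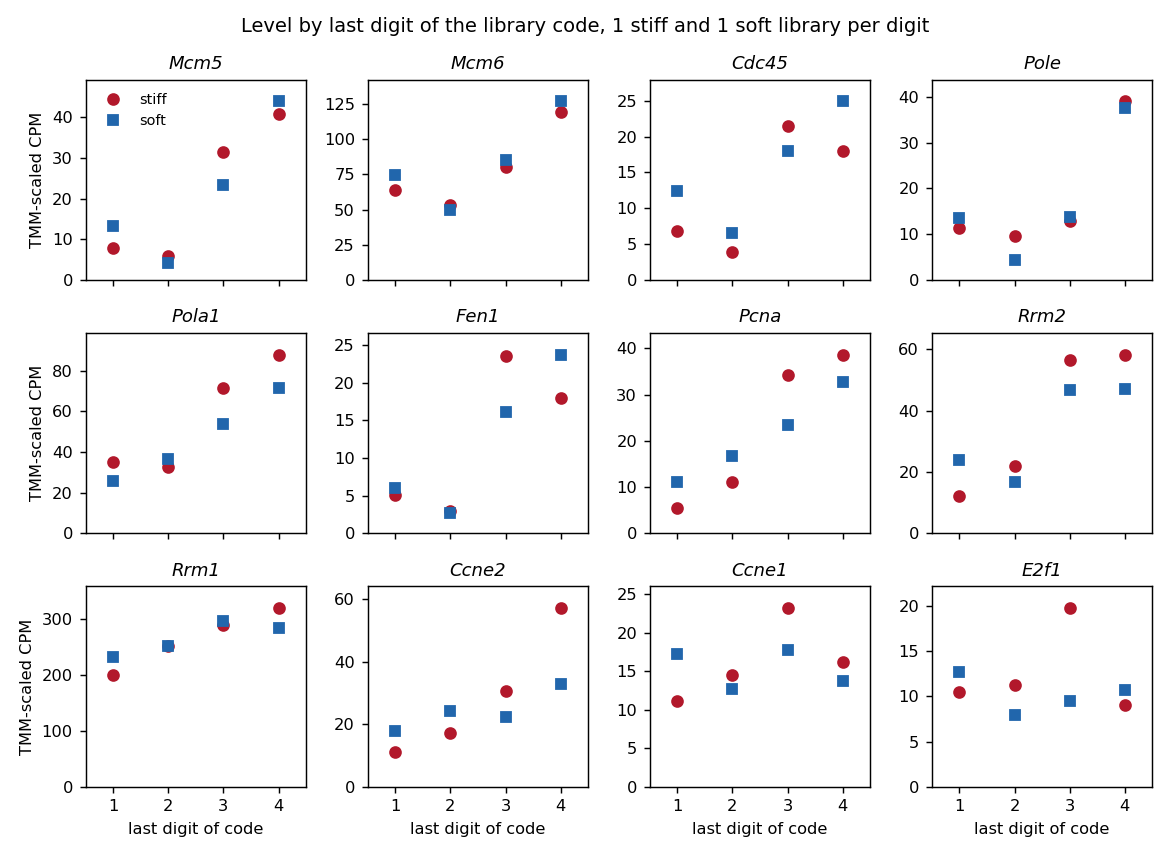
TMM-scaled CPM (vertical axes, from 0) is plotted against the last digit of the library code for 12 of the 38 genes, with 1 stiff (circles) and 1 soft (squares) library per digit. In Mcm5, Pole and Rrm2 both substrates are highest at digit 4, while E2f1 and Ccne1 are not highest at digit 4 on either substrate.

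The clamp and lagging-strand group had 3 of 6 genes past the test between digits: Pcna, the sliding clamp that tethers polymerases to DNA, Rfc5, a subunit of the clamp loader, and Fen1, the nuclease that trims flaps between lagging-strand fragments. Fen1 had 5.08, 2.995, 23.5 and 17.9 CPM in stiff libraries 1 to 4, against 6.06, 2.74, 16.1 and 23.7 CPM in soft libraries 1 to 4. Pcna had 5.46, 11.1, 34.3 and 38.6 CPM in stiff libraries 1 to 4, against 11.2, 16.7, 23.4 and 32.6 CPM in soft libraries 1 to 4. Rfc5 had 10.4, 10.62, 21.9 and 20.5 CPM in stiff libraries 1 to 4, against 12.7, 6.93, 20.2 and 29.9 CPM in soft libraries 1 to 4. In these genes libraries 3 and 4 were above libraries 1 and 2 on both substrates, with digit means 7.25-fold apart for Fen1 (adjusted p = 8.83e-06), 4.28-fold for Pcna (adjusted p = 2.37e-04) and 2.87-fold for Rfc5 (adjusted p = 0.0200). Lig1 had 10.8, 14.6, 15.1 and 29.7 CPM in stiff libraries 1 to 4, against 17.8, 14.1, 22.4 and 33.6 CPM in soft libraries 1 to 4. Lig1 had the same high and low libraries and missed the threshold (adjusted p = 0.0669). Rfc3 and Rfc4, further loader subunits, also missed it (adjusted p = 0.542 and 0.436). Rfc4 was the exception to the low libraries: its lowest digit mean was that of digit 3, and stiff library 3 stood at 6.27 CPM, with the other stiff libraries at 14.6 to 15.01 CPM.

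For nucleotide supply, 3 of 4 genes passed between digits: Rrm2, the small subunit of ribonucleotide reductase, Tyms, thymidylate synthase, and Tk1. Rrm2 had 12.2, 22.0, 56.4 and 58.3 CPM in stiff libraries 1 to 4, against 23.8, 16.9, 46.6 and 46.9 CPM in soft libraries 1 to 4. Tyms had 11.4, 12.4, 22.7 and 35.7 CPM in stiff libraries 1 to 4, against 16.0, 18.1, 25.8 and 33.5 CPM in soft libraries 1 to 4. Every library 3 and 4 was above every library 1 and 2 in these genes and in Tk1, whose values stand above, and digit means were 2.93-fold apart for Rrm2 (adjusted p = 9.68e-05), 2.52-fold for Tyms (adjusted p = 0.0186) and 4.62-fold for Tk1 (adjusted p = 2.71e-04). Rrm1 had 199, 251, 290.0 and 319.6 CPM in stiff libraries 1 to 4, against 232, 251, 297 and 284 CPM in soft libraries 1 to 4. Rrm1, the large subunit of the same reductase, had digit means 1.40-fold apart and did not pass (adjusted p = 0.338); whether its fold differs from that of Rrm2 was not tested.

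Of the 4 G1/S regulators, Ccne2 passed between digits (adjusted p = 0.00857). It encodes a cyclin E, the partner of Cdk2 at the G1/S boundary. Ccne2 had 11.3, 17.2, 30.7 and 57.2 CPM in stiff libraries 1 to 4, against 18.0, 24.2, 22.2 and 32.9 CPM in soft libraries 1 to 4. Libraries 3 and 4 were the high ones on stiff, whereas on soft library 4 was high and library 3 lay below library 2. E2f1 had 10.51, 11.2, 19.8 and 8.995 CPM in stiff libraries 1 to 4, against 12.6, 7.99, 9.53 and 10.7 CPM in soft libraries 1 to 4. E2f1 was highest in stiff library 3 and in soft library 1, and its adjusted p between digits was 0.838, the largest of the 38 genes. Ccne1, the other cyclin E, had its highest mean in digit 3 and E2f2 in digit 4, and neither passed (adjusted p = 0.755 and 0.522).

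In the chromatin and histone RNA group, Chaf1a and Slbp passed between digits. Slbp encodes the stem-loop binding protein that histone messenger RNAs of S phase need for their processing and translation. Slbp had 20.9, 25.5, 49.8 and 47.5 CPM in stiff libraries 1 to 4, against 22.3, 21.5, 26.9 and 45.7 CPM in soft libraries 1 to 4. Chaf1a had 3.81, 10.9, 11.8 and 18.3 CPM in stiff libraries 1 to 4, against 10.9, 4.26, 20.3 and 29.6 CPM in soft libraries 1 to 4. Libraries 3 and 4 were above libraries 1 and 2 in both genes, with adjusted p values of 0.0328 for Slbp and 0.0352 for Chaf1a. Chaf1b, the partner of Chaf1a, did not pass (adjusted p = 0.247), with digit means 2.33-fold apart.

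Over all 38 genes, the mean was highest in digit 4 for 36 (94.7%), against 30.7% of all tested genes, and highest in digit 3 for Ccne1 and E2f1. Taken by substrate, library 4 was the highest of the stiff libraries for 28 genes and of the soft libraries for 31, and of both for 23 (60.5%), against 12.0% of all tested genes. A highest mean in digit 4 was not particular to the 38. It was found in 15 of 16 cardiomyocyte markers (93.8%) and 22 of 26 replication-dependent histone genes (84.6%). The share was lower in 75 further replication and G1/S genes (58.7%), in fibroblast markers (50%) and in mitosis and cytokinesis genes (43.3%). The share of a gene's sum of squares within substrates that lay between digits was also taken. Its median was 88.1% over the 38 genes and 62.1% over all tested genes. Each digit has 1 stiff and 1 soft library, so this share would be about 50% if libraries of the same digit were unrelated. Both medians are to be read against that level. With both digit 4 libraries left out, a setting added after the data were seen, 8 of the 38 genes (21.1%) passed between the remaining digits, against 480 of all tested genes (3.41%): Mcm2, Mcm5, Cdc45, Pola1, Pcna, Fen1, Rrm2 and Tk1. The count for the 38 was 16 with digit 1 left out (6.66% of all tested genes passed), 15 with digit 2 left out (5.79%) and 25 with digit 3 left out (7.5%). Without stiff library 4 alone it was 16, beside 1697 of all tested genes (11.8%), and without soft library 4 it was 14, beside 889 of all tested genes (6.21%).

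**Figure D4:**
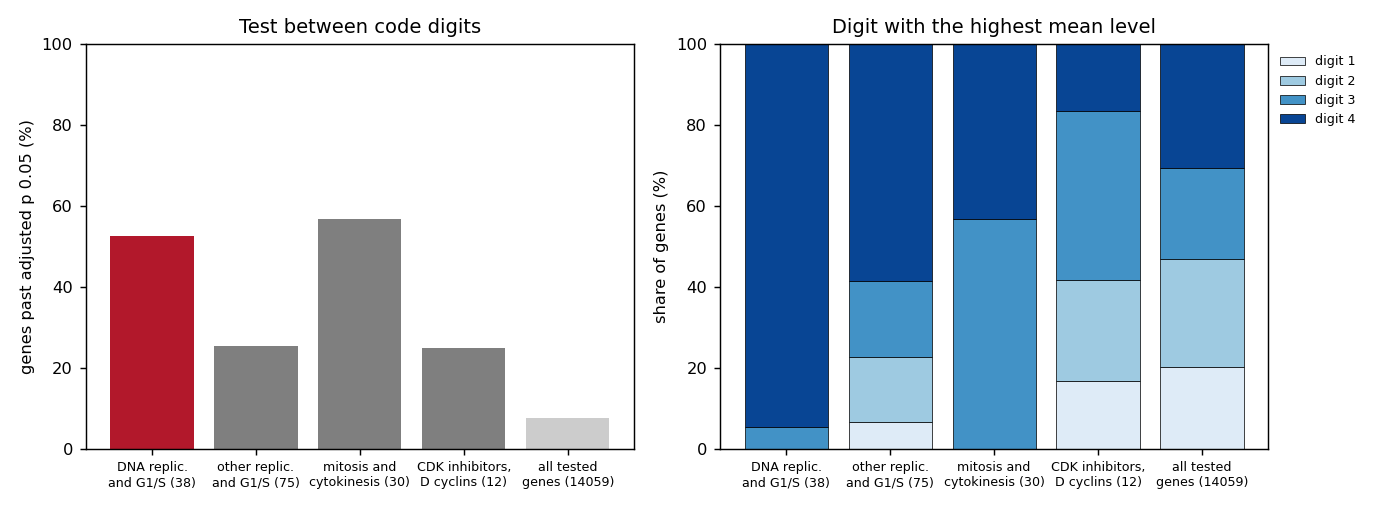
Left, the percentage of tested genes past an adjusted p of 0.05 between code digits (edgeR), for the 38 genes, 3 further cell cycle lists and all tested genes; right, the percentage of each list whose mean is highest in each digit. The 38 genes stand at 52.6% and all tested genes at 7.61% on the left, and digit 4 takes 94.7% of the 38 on the right. Not drawn are histone genes (65.4% past the test), cardiomyocyte markers (68.8%), fibroblast markers (83.3%) and the other marker lists (0% to 50%).

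Some other genes of the cell cycle varied between the same libraries. Of 75 further replication and G1/S genes, 0 were called between substrates by edgeR (0 at an unadjusted p under 0.05, median log2 fold change 0.03). Between digits 19 of the 75 (25.3%) passed. Of these 19, 15 (78.9%) had their highest mean in digit 4, against 45.6% of all genes that passed. Passing or not, 44 of the 75 (58.7%) had their highest mean in digit 4, against 30.7% of all tested genes. The 15 that passed with their highest mean in digit 4 included Dnmt1 and Uhrf1, which copy DNA methylation onto new strands. They also included Gmnn, the inhibitor of Cdt1, and Rbl1, a relative of the retinoblastoma protein. Uhrf1 had 19.3, 14.5, 49.0 and 54.2 CPM in stiff libraries 1 to 4, against 21.6, 13.0, 37.9 and 55.1 CPM in soft libraries 1 to 4, so that libraries 3 and 4 were high on both substrates (adjusted p = 1.30e-05). Samhd1, which breaks down deoxynucleotides, and Rb1 itself were lower in libraries 3 and 4 than in libraries 1 and 2 on both substrates. Samhd1 had 62.5, 52.1, 40.2 and 32.0 CPM in stiff libraries 1 to 4, against 45.4, 53.6, 33.1 and 23.6 CPM in soft libraries 1 to 4 (adjusted p = 0.0484). Rb1 had 72.9, 91.9, 54.8 and 59.6 CPM in stiff libraries 1 to 4, against 76.7, 98.8, 45.3 and 52.5 CPM in soft libraries 1 to 4 (adjusted p = 0.0263).

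Of 30 mitosis and cytokinesis genes, 0 were called between substrates (again 0 unadjusted, median log2 fold change 0.03) and 17 (56.7%) passed between digits, 8 with the highest mean in digit 3 and 9 in digit 4, and 14 with the lowest in digit 1. Mki67 had 158, 157, 292 and 298 CPM in stiff libraries 1 to 4, against 153, 151, 238 and 234 CPM in soft libraries 1 to 4. This marker of cycling cells was higher in libraries 3 and 4 on both substrates (adjusted p = 0.00269). The sum of the 30 genes was 1513, 1837, 2677 and 2751 CPM in stiff libraries 1 to 4, against 1546, 1780.1, 2789 and 2385 CPM in soft libraries 1 to 4, so library 4 was the highest on stiff and library 3 on soft. Of 12 CDK inhibitors and D-type cyclins, 0 were called between substrates (0 unadjusted, median -0.11) and 3 passed between digits. Cdkn1c and Cdkn1b, the inhibitors p57 and p27, had their lowest mean in digit 4 and their highest in digit 2, and Ccnd1, cyclin D1, was highest in digit 4. Cdkn1c had 21.1, 33.9, 17.3 and 4.94 CPM in stiff libraries 1 to 4, against 29.1, 46.7, 22.7 and 7.13 CPM in soft libraries 1 to 4 (adjusted p = 5.87e-06). Ccnd1 had 72.9, 83.0, 144 and 212 CPM in stiff libraries 1 to 4, against 133, 89.9, 116 and 234 CPM in soft libraries 1 to 4 (adjusted p = 7.53e-05). Cdkn1c was thus lowest in library 4 on both substrates, and cyclin D1 highest there.

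Replication-dependent histone genes, whose RNA is made in S phase, had estimates lower on stiff for all 26 tested genes, with a median of -1.21, 0 called by edgeR and 2 at an unadjusted p under 0.05. Without soft library 4, an alternative added after seeing the data, the median was -0.37, with 20 of 26 estimates lower on stiff, 0 called and 0 at an unadjusted p under 0.05. That fit kept stiff library 4 and had no digit term, while 22 of the 26 genes had their highest mean in digit 4. It therefore cannot show how much of the difference soft library 4 alone carries. Between digits 17 of the 26 (65.4%) passed. Their sum was 224, 217, 418 and 393 CPM in stiff libraries 1 to 4, against 301, 212, 528 and 1034 CPM in soft libraries 1 to 4, with soft library 4 at the top and library 3 or 4 the highest of each substrate. These RNAs mostly lack poly(A) tails, and the labels do not give the RNA selection used.

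Markers of some cell types moved between the same libraries as well. The fibroblast sum was 9442, 10692, 14590.0 and 13702 CPM in stiff libraries 1 to 4, against 10205, 10812, 17091 and 17823 CPM in soft libraries 1 to 4, and 10 of its 12 genes passed between digits. Libraries 3 and 4 were above libraries 1 and 2 on both substrates in this sum and in 10 of the 12 genes. Pdgfra, a receptor of fibroblasts that passed, was lowest in library 3 on both substrates, and Lum in soft library 4 lay below soft library 1. Of the 16 cardiomyocyte markers 11 passed, 10 of these with the highest mean in digit 4, and their sum, given above, was highest in library 4 of each substrate. The endothelial sum was 347, 283, 224 and 212 CPM in stiff libraries 1 to 4, against 297, 266, 194 and 249.6 CPM in soft libraries 1 to 4, with 2 of 10 genes past the test. The leukocyte sum was 162, 163, 118 and 113 CPM in stiff libraries 1 to 4, against 181, 134, 129.6 and 122 CPM in soft libraries 1 to 4, with 0 of 10 past the test, so these small sums were lower in libraries 3 and 4 than in library 1 on both substrates. Smooth muscle and pericyte markers passed for 5 of 10 genes and epicardial markers for 2 of 8. The part of these markers in the variation of the 38 genes was not tested.

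**Figure D5:**
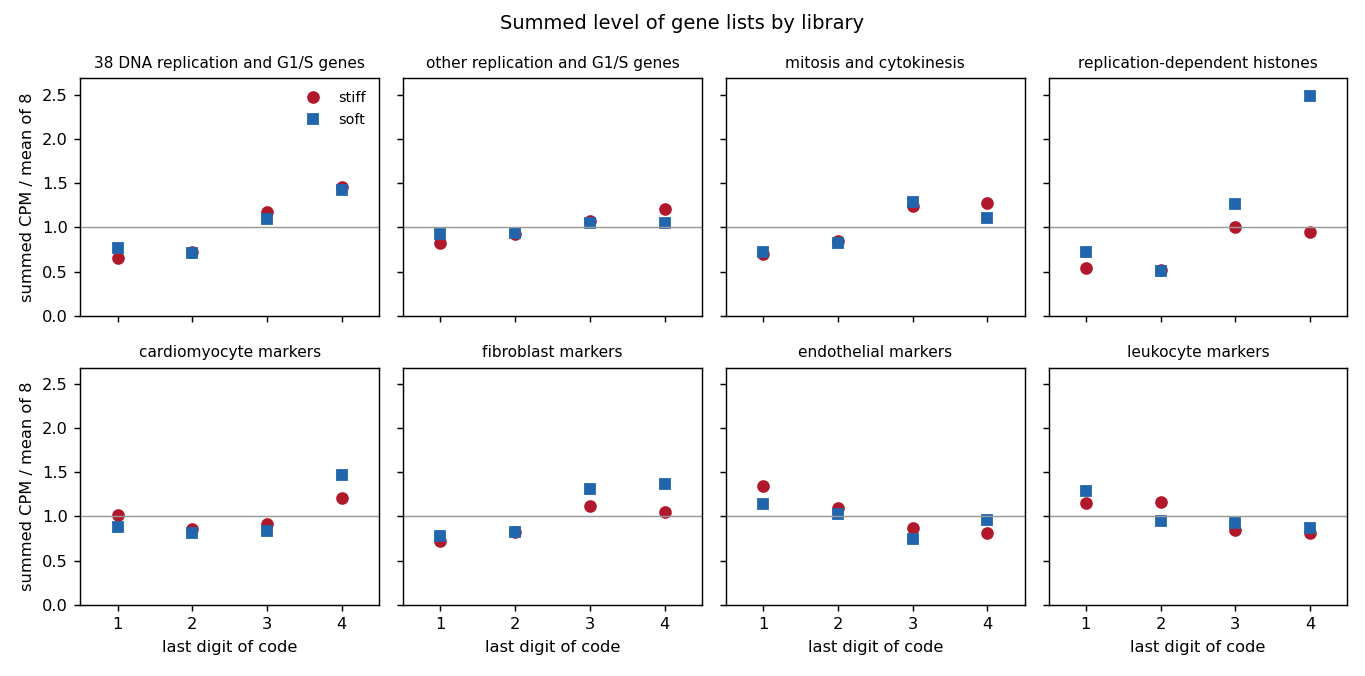
The summed CPM of 8 gene lists, divided by the list's mean over the 8 libraries, is plotted against the last digit of the library code, with 1 stiff (circles) and 1 soft (squares) library per digit and a line at the mean. The 38 genes and the mitosis list are above the line in libraries 3 and 4, the fibroblast list is high in the same libraries, and the endothelial and leukocyte lists are highest in library 1 or 2 of each substrate.

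The tested genes outside the 38 whose log2 CPM was most like the mean of the 38 over the 8 libraries, after substrate means were taken out, were Nup107 (Pearson r = 0.994), Lrp1b (0.991), Dnmt1 (0.989), Mthfd2 (0.988) and Dennd2a (0.988). Nup107 is a nuclear pore subunit, Lrp1b a receptor of the LDL receptor family and Mthfd2 a mitochondrial enzyme of one-carbon metabolism. Mthfd2 had 36.9, 35.6, 66.2 and 112 CPM in stiff libraries 1 to 4, against 44.9, 32.7, 83.5 and 109 CPM in soft libraries 1 to 4. Nup107 had 39.0, 38.9, 49.8 and 56.2 CPM in stiff libraries 1 to 4, against 42.8, 39.6, 55.0 and 61.8 CPM in soft libraries 1 to 4. In both, library 4 was the highest and library 3 the next on each substrate. Between digits Mthfd2 passed (edgeR adjusted p = 3.07e-06), as did Lrp1b and Dnmt1. Nup107 (adjusted p = 0.375) and Dennd2a (adjusted p = 0.109) did not pass. These likenesses are a description of the highest values among all tested genes.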

How the data were processed

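The authors deposited raw counts per gene and library for coding genes, used here, and for noncoding genes, not used here. The submitters' processing notes name HTSeq 0.6.1, TopHat2 2.0.14, TopHat, Bowtie2, edgeR, DESeq2, Cufflinks, FastQC 0.11.2 and build GRCm38, without roles; strand handling is not given in the sources used here, so overlapping and antisense genes cannot be separated. Of 29844 genes, 29150 matched a symbol. Groups are the labels' substrates. In R 4.3.3, edgeR 4.0.16 (filterByExpr with minimum count 10 and minimum total 15, TMM scaling, robust quasi-likelihood F test) compared stiff with soft over all 8 libraries with substrate as the sole term; Benjamini-Hochberg adjustment ran over all 14059 tested genes, and calls are adjusted p under 0.05. A second fit tested the 3 terms of the code's last digit jointly beside substrate. DESeq2 1.42.0 and limma-voom (limma 3.58.1), other scaling and filters, and left-out libraries were alternatives. The method was also run on simulated data with known differences. Those data held no spread shared by a digit except in the genes given one. That run therefore cannot show how the substrate test behaves with the digit spread seen here.

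Chi-square per degree of freedom between library pairs ran from 46.1 to 239 over 28 pairs, so no library was a duplicate. No molecular identifiers are mentioned in the labels, so reads may repeat molecules. After substrate means were taken out, libraries with the same digit correlated over genes at 0.104, 0.181, 0.128 and 0.305 for digits 1 to 4, each above 0.1, although stiff 1 and soft 1 each correlated best with the digit 2 library of the other substrate, and over the 38 genes alone the values were -0.04, 0.05, 0.40 and 0.44; the digits were therefore taken as pairing the libraries, from the data and not from the labels, in an alternative fit with the digit as a block. The 38 genes, the gene lists and the tests were chosen with earlier results of these data known. Values in every library are given for each gene called between digits and, in each role, for the gene with the smallest p of either test and the most abundant one; genes of other lists named between digits, other than the most alike, were picked once their values had been seen. The rule for other lists also asked for the genes with the smallest p between substrates; as 0 passed, these are given as counts and medians. 1 gene of these lists is not reported here.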

Additional observations from a re-analysis of the deposited data

Results flagged for a closer look

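In 3 of the 100 groups of 4 libraries tested for 1 library standing apart from the rest, a library did so by Dixon's test at its 95% critical value, and chance flags about 1 in 20 groups. Pole stood at 39.0 CPM in stiff library 4, with the other stiff libraries between 9.56 and 12.9 CPM. Rfc4 stood at 6.27 CPM in stiff library 3, with the other stiff libraries between 14.6 and 15.01 CPM. The cardiomyocyte marker sum stood at 48329 CPM in soft library 4, with the other soft libraries between 26611 and 28826 CPM.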

How the results depend on the processing

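None of the 20 alternative settings called any of the 38 genes between substrates (lowest adjusted p 0.9996). With the digit as a replicate block, edgeR called 0 of all tested genes and limma-voom called 5, none of them among the 38; the block changed no other call, and the lowest unadjusted p of the 38 under it was 0.0805. At an unadjusted p under 0.05, the block listed 360 of all tested genes in edgeR and 440 in limma-voom, which without it listed 180. Each of these counts is also below what chance alone would list. The number of the 38 with a higher estimate on stiff ran from 7 to 33 as each library was left out in turn, and the median log2 fold change from -0.38 to 0.27. As these fits had no digit term and kept 1 digit on 1 substrate only, these ranges mix substrate with digit. The log2 fold change of E2f1, 0.30 over all libraries, turned to -0.0297 with both digit 3 libraries left out. Between digits, 20 to 23 of the 38 passed under the other scalings, filters and tools (7.38% to 10.1% of all tested genes), and 14 to 23 with 1 library left out; 12 passed in every planned setting (Mcm2, Mcm3, Mcm4, Mcm5, Mcm6, Cdc45, Pola1, Pole, Pcna, Fen1, Rrm2 and Tk1). All tested genes passing numbered 822 to 1697 with 1 library left out. With both digit 4 libraries left out, a setting chosen after seeing the data, they numbered 480 and the 38 gave 8. Cdc6 and Chaf1a did not pass in DESeq2. The causes were not tested.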

Other observations

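Over all tested genes, the 10 with the smallest p between code digits included none of the 38 nor of the other cell cycle lists; 5 are given here, chosen after their values were seen. Xirp2 had 154, 180.5, 221 and 1126 CPM in stiff libraries 1 to 4, against 145, 205, 141 and 649.7 CPM in soft libraries 1 to 4. This gene of striated muscle adhesion sites was highest in library 4 on both substrates (edgeR adjusted p = 5.03e-14). Tnnc1 had 203, 193, 345 and 546 CPM in stiff libraries 1 to 4, against 229, 158, 330.0 and 784 CPM in soft libraries 1 to 4. Cardiac troponin C was also highest in library 4 on both (adjusted p = 2.35e-09). H19 had 715, 963, 1162 and 148 CPM in stiff libraries 1 to 4, against 609.9, 860.3, 1293 and 238 CPM in soft libraries 1 to 4. This imprinted noncoding RNA was lowest in library 4 on both substrates, where the DNA replication genes were highest (adjusted p = 3.92e-12).

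Ddx3y had 218, 382, 83.7 and 153 CPM in stiff libraries 1 to 4, against 263, 389.6, 84.4 and 94.96 CPM in soft libraries 1 to 4. This Y-linked gene was highest in library 2 on both substrates (adjusted p = 5.43e-10). Nqo1 had 170.4, 151, 49.1 and 89.6 CPM in stiff libraries 1 to 4, against 206, 111, 22.8 and 72.9 CPM in soft libraries 1 to 4. The oxidative stress enzyme was lowest in library 3 on both substrates (adjusted p = 1.84e-08).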
